A study of Homo sapiens with 6 samples.

Results

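The 26S proteasome is the protease that degrades ubiquitin-tagged proteins. Its barrel-shaped core stacks rings of alpha subunits, which gate the entrance, around rings of beta subunits, which carry the cutting sites. A cap sits on the core: a ring of ATPase subunits unfolds the substrate, and non-ATPase subunits of the base and lid recognise ubiquitin and remove it. Growing tumour cells rely on this machine, and the transcription factor NFE2L1 raises many of the subunit genes together when proteasome activity falls short.

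Described here are the mRNAs of 32 constitutive proteasome subunits, chosen by gene symbol from 54261 gene rows: 7 of the alpha ring (PSMA), 7 of the beta ring (PSMB), 6 of the ATPase ring (PSMC) and 12 of the non-ATPase cap (PSMD and ADRM1). The cap subunit SEM1 was not in that choice and is given with the assembly factors. The cells were A549, an established human lung adenocarcinoma line, in which the lncRNA SNHG17 was knocked down (si-SNHG17, 3 libraries), and their controls (si-NC, 3 libraries). All cells grew in medium with fetal bovine serum, the labels give no other treatment, and neither the siRNA sequences nor the time after knockdown is given in the sources used here. SNHG17 is a long noncoding RNA that the series title ties to growth and movement of lung cancer cells, and the comparison asks how the transcriptome differs once it is lowered.

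The libraries held 8643076 to 12477214 counts, of which the 32 subunits took 0.449% to 0.473% in si-SNHG17 and 0.475% to 0.505% in si-NC. SNHG17 was at 7.82, 8.39 and 11.3 CPM (counts divided by the TMM-scaled library size) in si-SNHG17 cells, against 38.7, 36.2 and 51.4 CPM in si-NC cells, in the direction of the labels. Mitochondrially encoded genes took 4.16% to 4.53% of the counts in si-SNHG17 and 7.25% to 8.07% in si-NC. Of 5 epithelial markers, KRT8, KRT18, KRT19 and CDH1 were well counted, while EPCAM reached only 0.479 to 1.46 CPM in si-SNHG17 and 1.31 to 1.71 CPM in si-NC. The leukocyte genes PTPRC and CD3E and the fibroblast genes COL1A2 and COL3A1 had no count in any library. Summed markers were 4988 to 5005 CPM in si-SNHG17 and 8417 to 9420 CPM in si-NC for epithelium. KRT8 and KRT18 made up nearly all of that sum and were lower, as was CDH1, while KRT19 was higher, at 112 to 122 CPM in si-SNHG17 and 80.1 to 97.7 CPM in si-NC (log2 fold change 0.43, adjusted p = 0.00232 by edgeR). Leukocyte markers summed to 18.6 to 21.6 CPM in si-SNHG17 and 31.2 to 43.6 CPM in si-NC, nearly all of it CD14. Fibroblast and muscle markers summed to 31.2 to 31.7 CPM in si-SNHG17 and 33.1 to 36.8 CPM in si-NC, nearly all of it ACTA2. Endothelial genes summed to at most 0.939 CPM in si-SNHG17 and 1.03 CPM in si-NC. The part of these shifts in the results was not tested. Replicate 3 of si-NC stood apart from its group: a chi-square test of its counts, divided by the degrees of freedom, gave 9.83 with si-NC replicate 1 and 9.29 with si-NC replicate 2. The same measure was 2.38 for the other si-NC pair and 3.23 to 5.29 among si-SNHG17 libraries. Separate cultures are not stated for the libraries of a group, and the p-values therefore rest on library-to-library spread that may be technical. In bulk RNA a smaller amount of a transcript per cell cannot be told apart from fewer cells making it.

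Promoters of 4 subunit genes past the threshold are shown because they carry the core of the antioxidant response element, the sequence that NFE2L1 and its relative NFE2L2 bind. Each runs from 250 bases before the RefSeq start to 50 after it (GRCh38.p14), and capitals mark the motif TGACNNNGC, or its reverse complement GCNNNGTCA. PSMB3, PSMC4 and PSMD1 were lower in si-SNHG17 and ADRM1 was higher. The regions, all on the plus strand, are chr17:38752491-38752790 for PSMB3, chr19:39970915-39971214 for PSMC4, chr2:231056617-231056916 for PSMD1 and chr20:62302646-62302945 for ADRM1.
PSMB3: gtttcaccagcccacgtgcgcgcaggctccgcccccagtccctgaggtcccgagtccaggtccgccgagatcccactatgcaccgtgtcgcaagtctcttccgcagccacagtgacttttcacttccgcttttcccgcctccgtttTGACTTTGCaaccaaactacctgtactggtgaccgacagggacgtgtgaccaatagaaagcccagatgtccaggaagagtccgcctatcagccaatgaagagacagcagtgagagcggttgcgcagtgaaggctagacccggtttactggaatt
PSMC4: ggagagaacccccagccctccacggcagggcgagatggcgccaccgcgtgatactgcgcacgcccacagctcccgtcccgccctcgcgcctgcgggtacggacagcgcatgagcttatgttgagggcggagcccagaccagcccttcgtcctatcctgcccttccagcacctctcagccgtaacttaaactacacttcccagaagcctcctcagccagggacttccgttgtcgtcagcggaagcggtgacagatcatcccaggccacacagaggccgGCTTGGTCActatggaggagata
PSMD1: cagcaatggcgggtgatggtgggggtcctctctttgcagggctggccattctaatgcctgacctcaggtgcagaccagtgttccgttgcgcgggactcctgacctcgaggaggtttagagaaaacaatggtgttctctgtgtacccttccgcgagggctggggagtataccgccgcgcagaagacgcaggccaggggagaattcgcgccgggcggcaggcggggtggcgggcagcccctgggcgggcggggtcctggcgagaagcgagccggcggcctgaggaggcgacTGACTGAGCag
ADRM1: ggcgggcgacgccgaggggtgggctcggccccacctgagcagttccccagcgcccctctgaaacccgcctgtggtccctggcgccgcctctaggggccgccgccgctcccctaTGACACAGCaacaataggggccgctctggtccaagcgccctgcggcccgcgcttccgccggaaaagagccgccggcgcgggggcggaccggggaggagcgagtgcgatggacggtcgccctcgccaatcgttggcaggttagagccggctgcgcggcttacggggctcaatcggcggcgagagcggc

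The match lay before the start in PSMB3 (-104 to -96 from the start base) and in ADRM1 (-137 to -129), and after it in PSMC4 (27 to 35) and PSMD1 (39 to 47). RefSeq promoters were matched by symbol for 27 of the 32 subunits. The motif was present, on either strand, in 8 of these 27 genes (29.6%), against 16.1% of 27305 genes in the table. It was found in 3 of 9 genes that were lower, 1 of 2 that were higher and 4 of 16 that did not pass, so carriers stood in all of these classes. CCAAT, the box bound by NF-Y, was present on either strand in 16 of the 27 (59.3%) and in 39.7% of all genes: 5 of the 9 lower, 1 of the 2 higher and 10 of the 16 others. A match is a description of letters and does not show that a factor binds there.

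Most subunit mRNAs moved little, and those that passed the test were mainly lower after the knockdown. Of the 32 subunits, all of which had enough counts to be tested, 10 fell and 2 rose by edgeR's quasi-likelihood test at an adjusted p of 0.05, and 20 did not pass. Over all 15614 genes tested, 39.1% passed, 19.6% lower and 19.6% higher, so the share of subunits called (37.5%) was close to the background and is no result about the subunits. By direction, 31.2% of the subunits were lower and 6.25% higher. Among mRNAs at least as abundant as the least abundant subunit (11.2 CPM), 49.3% passed, 23.6% lower and 25.7% higher. Without the 4 subunits whose calls depended on the processing, 6 were lower and 2 higher. Without si-NC replicate 3, 11 subunits were lower and 3 higher. The median log2 fold change was -0.17 over the subunits, with 25 of 32 below 0, against 0.01 over all genes tested.

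The lowest subunit was PSMD14 at -0.82 and the highest was ADRM1 at 0.48, so no subunit reached a 2-fold change, which 9.38% of all genes tested did while passing the threshold. The groups did not overlap for 15 subunits lower in si-SNHG17 and 3 higher, where 24.3% and 25.1% of all genes were separated in these directions (49.4% in either).

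**Figure D1:**
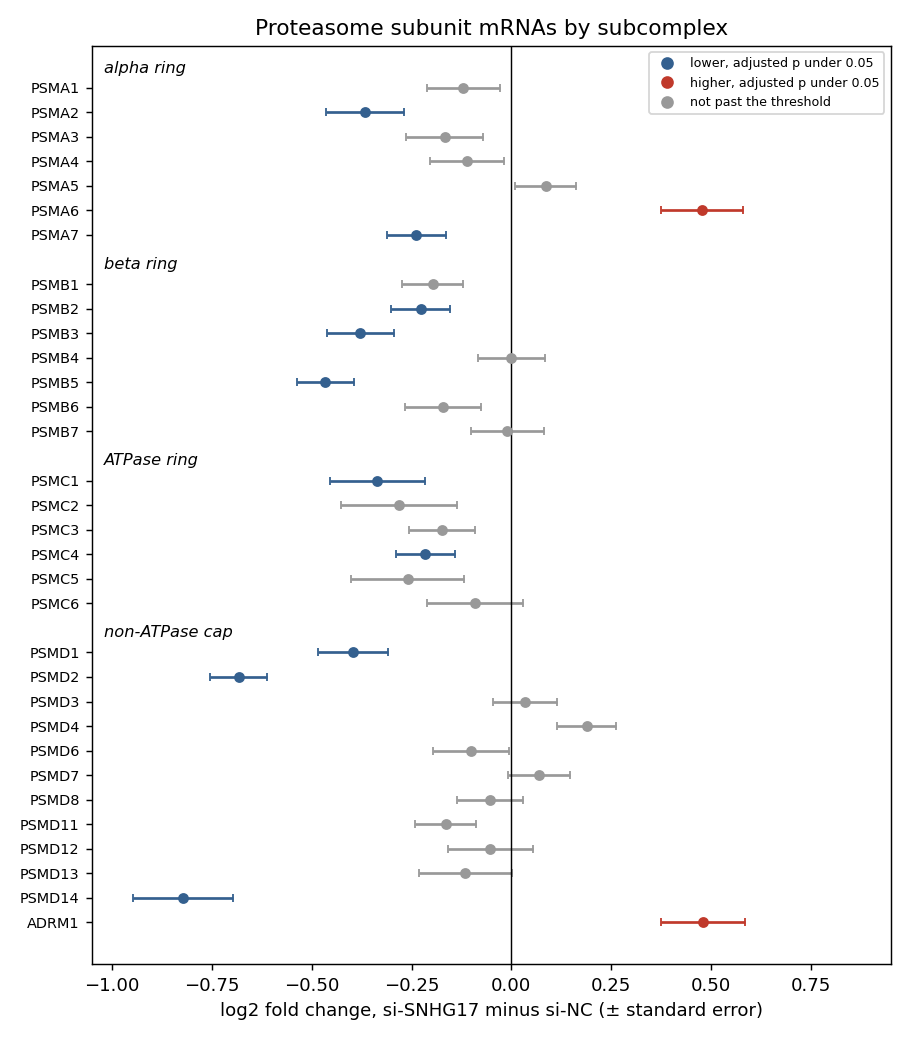
Log2 fold change (si-SNHG17 minus si-NC, horizontal axis) of each of 32 proteasome subunits by subcomplex, with the standard error of the edgeR fit as bars. Blue points fell, red points rose and grey points did not pass an adjusted p of 0.05; the 10 blue points lie in every subcomplex, and the red points are PSMA6 and ADRM1.

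In the alpha ring, whose subunits form the outer gate of the core, PSMA6 rose and PSMA2 and PSMA7 fell. The share that passed, 42.9% of 7 subunits, was close to the 39.1% of all genes tested. PSMA6 was at 199, 237 and 219 CPM in si-SNHG17 libraries, against 139, 148 and 182 CPM in si-NC libraries. Every si-SNHG17 library lay above every si-NC library, with si-NC replicate 3 nearest. Its log2 fold change was 0.48 (standard error 0.103, adjusted p = 0.0022 by edgeR), and 0.60 without that library (adjusted p = 5.77e-06). Over the 17 alternatives of processing and left-out libraries, it ran from 0.40 to 0.61.

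PSMA2 had 29.4, 31.6 and 32.1 CPM in si-SNHG17, against 41.3, 39.5 and 39.2 CPM in si-NC, and the groups did not overlap. It fell by 0.37 on the log2 scale (standard error 0.0977, adjusted p = 0.00872 by edgeR), to 77.6% of the control level. PSMA7 had 219, 231 and 225 CPM in si-SNHG17 and 252, 265 and 278 CPM in si-NC. It fell by 0.24 (adjusted p = 0.0197 by edgeR), but this did not pass when si-SNHG17 replicate 1 (0.0884), si-SNHG17 replicate 3 (0.0643) or si-NC replicate 2 (0.0572) was left out, with no low-count filter (0.0526), or with GC content and length as an offset (0.0579). PSMA1, PSMA3, PSMA4 and PSMA5 did not pass, with log2 fold changes from -0.17 to 0.09 and adjusted p from 0.192 to 0.401. The median of the 7 alpha subunits was -0.12.

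In the beta ring, 3 of 7 subunits fell and none rose. The share that passed was 42.9%, against 39.1% of all genes tested. PSMB5, which carries the chymotrypsin-like site and is the main target of bortezomib, was at 205, 201 and 209 CPM in si-SNHG17 libraries, against 283, 275 and 290.4 CPM in si-NC libraries. The libraries of each group lay close together and far from the other group. PSMB5 fell by 0.47 on the log2 scale with a standard error of 0.0709 (adjusted p = 0.00015 by edgeR), to 72.4% of the control level.

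The other catalytic subunits did not pass. PSMB6, with the caspase-like site, averaged 262 ± 7.9 CPM in si-SNHG17 and 295 ± 42.1 CPM in si-NC (n = 3 each, SD). Its log2 fold change was -0.17 (adjusted p = 0.175 by edgeR, and 0.0324 without si-NC replicate 2, which lay below the other si-NC values of 299 and 335 CPM). PSMB7, with the trypsin-like site, averaged 113 ± 4.4 CPM in si-SNHG17 and 113 ± 13 CPM in si-NC.

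PSMB3 and PSMB2 are structural subunits of the same ring. PSMB3 was at 98.4, 102 and 89.6 CPM in si-SNHG17 and at 127, 119 and 131 CPM in si-NC, a fall of 0.38 on the log2 scale (standard error 0.0831, adjusted p = 0.00256 by edgeR). PSMB2 was at 119.6, 117 and 116 CPM in si-SNHG17 and at 137, 139 and 136 CPM in si-NC. Each gene had groups that did not overlap. The PSMB2 fall of 0.23 (adjusted p = 0.0258 by edgeR) was lost without any 1 of the libraries other than si-NC replicate 3, at adjusted p of 0.0654 to 0.088. It was also lost with library totals alone (0.0559), without the filter on low counts (0.099) and with the replicate number as a block (0.0635). PSMB1 (-0.20, adjusted p = 0.0578) and PSMB4 (0.00, adjusted p = 0.999) did not pass by edgeR. The median of the ring was -0.20, and it was -0.07 with the GC and length offset.

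**Figure D2:**
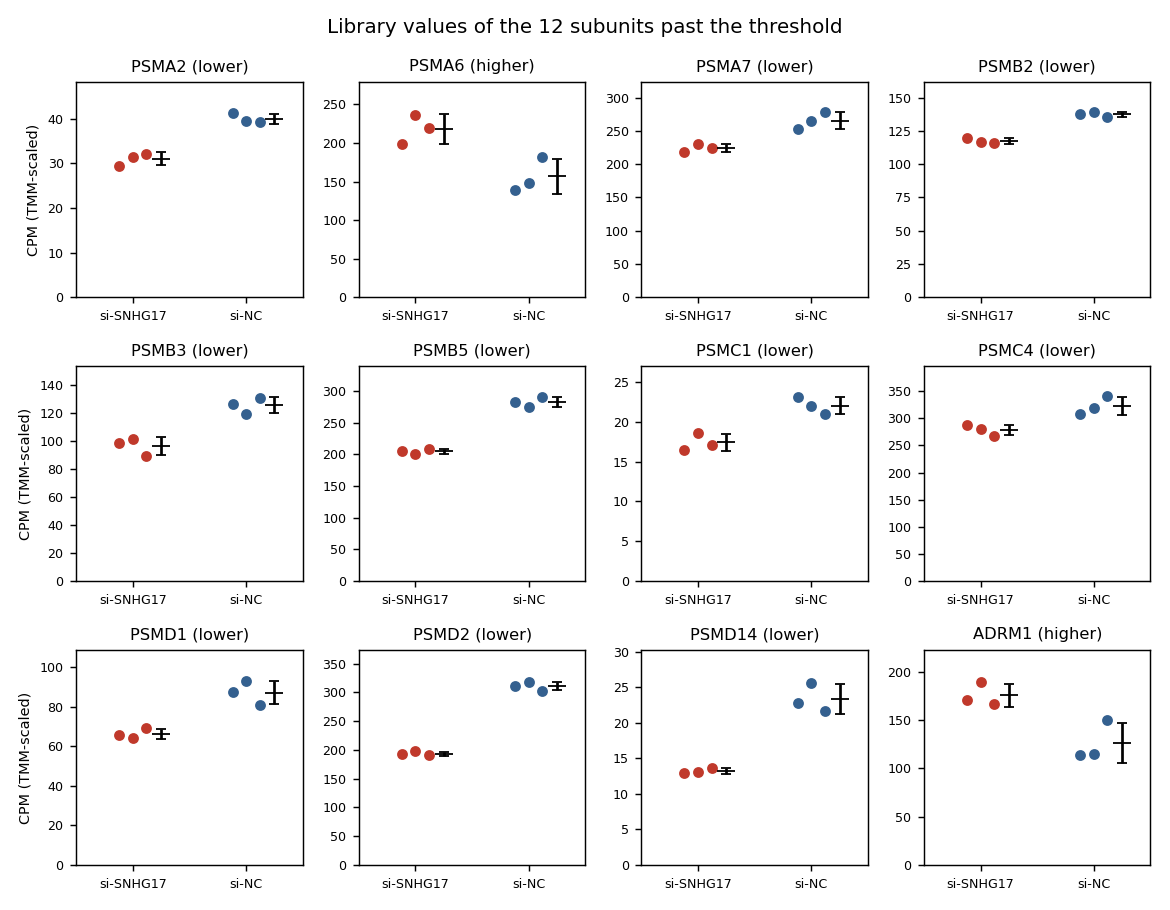
TMM-scaled CPM (vertical axes, from 0) of the 12 subunits past the threshold, in 3 si-SNHG17 libraries (red) and 3 si-NC libraries (blue), with the group mean and SD in black beside the points. In each panel the groups do not overlap; PSMD14 and PSMD2 show the widest relative gaps, at 56.5% and 62.3% of the control level.

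In the ATPase ring all 6 subunits had negative log2 fold changes by edgeR, and 2 fell (33.3%, where 39.1% of all genes tested passed). Over all genes tested, 50.8% of log2 fold changes were positive. The sign of PSMC6 was not firm. It had -0.0066 with pseudogene rows added and 0.0129 without si-SNHG17 replicate 1. PSMC4 had 287, 279.9 and 268 CPM in si-SNHG17 libraries, against 309, 319.6 and 341 CPM in si-NC libraries. Its groups did not overlap, but the gap between the nearest libraries was narrower than the range within si-NC. PSMC4 fell by 0.22 (standard error 0.0738, adjusted p = 0.0324 by edgeR). The call was lost without any single si-SNHG17 library or without si-NC replicate 2 (adjusted p of 0.0676 to 0.127), with library totals alone (0.0626), without the filter on low counts (0.0843) and with the replicate block (0.0729).

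PSMC1 had 16.5, 18.6 and 17.1 CPM in si-SNHG17 and 23.1, 22.0 and 21.0 CPM in si-NC, and fell by 0.34 (standard error 0.119, adjusted p = 0.0372 by edgeR). Its level is uncertain, since exons of NRDE2 on the opposite strand cover 75.8% of its exonic bases. Rows named as PSMC1 pseudogenes held 87.3% of the counts of the gene and its copies together, and a single row, PSMC1P1, held 7862 counts over the 6 libraries against 1191 for PSMC1. With the copies added the log2 fold change was -0.19 and did not pass (adjusted p = 0.0688 by edgeR). The PSMC1 call was also lost without si-SNHG17 replicate 1 or 3 or si-NC replicate 1 or 2, at adjusted p of 0.0923 to 0.121. It was lost with library totals alone (0.0608), no low-count filter (0.0947), DESeq2 (0.0752) and the replicate block (0.0664) as well. PSMC2, PSMC3, PSMC5 and PSMC6 had log2 fold changes from -0.28 to -0.09 and did not pass (adjusted p of 0.113 to 0.579 by edgeR). The median of the ring was -0.24.

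In the non-ATPase cap 3 of 12 subunits fell, 1 rose and 8 did not pass. The share that passed was 33.3%, against 39.1% of all genes tested. PSMD14, the lid enzyme that cuts ubiquitin chains off the substrate, was at 12.9, 13.0 and 13.7 CPM in si-SNHG17 libraries, against 22.8, 25.6 and 21.6 CPM in si-NC libraries. The 3 si-SNHG17 libraries lay close together and under every control. PSMD14 fell by 0.82 on the log2 scale (standard error 0.125, adjusted p = 0.000151 by edgeR), to 56.5% of the control level. PSMD7, its partner in the lid, 30.7% of whose exonic bases an opposite-strand gene covers, did not pass (164 ± 9.57 CPM in si-SNHG17 and 156 ± 5.24 CPM in si-NC). The ratio of PSMD14 to PSMD7 counts, which needs no library scaling, was 8.31%, 8.05% and 7.84% in si-SNHG17 and 14.6%, 17.0% and 13.4% in si-NC.

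PSMD2 and PSMD1, the large scaffold subunits of the base, fell as well. PSMD2 was at 193, 197 and 190.4 CPM in si-SNHG17, against 312, 318 and 303 CPM in si-NC. No other subunit had a smaller p: it fell by 0.68 on the log2 scale (standard error 0.0707, adjusted p = 4.95e-06 by edgeR). The row of its pseudogene PSMD2P1, with 1118 counts, was lower too (-0.79, adjusted p = 0.000404), and how reads shared by the gene and its copy were assigned is not given in the sources used here. PSMD1 was at 65.7, 64.0 and 69.3 CPM in si-SNHG17 and 87.7, 92.9 and 81.1 CPM in si-NC, a fall of 0.40 (adjusted p = 0.00268 by edgeR).

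ADRM1, a ubiquitin receptor that docks on PSMD1, rose. It was at 171, 189.5 and 167 CPM in si-SNHG17 libraries, against 114, 115 and 150.0 CPM in si-NC libraries. The groups did not overlap, with si-NC replicate 3 again nearest. Its log2 fold change was 0.48 (standard error 0.106, adjusted p = 0.00265 by edgeR), and 0.62 without that library (adjusted p = 2.32e-06). Over the 17 alternatives of processing and left-out libraries, it ran from 0.35 to 0.62. Exons of LAMA5 and of another gene on the opposite strand cover 17.2% of its exonic bases, and use of strand in the counting is not given.

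Another ubiquitin receptor of the cap, PSMD4, did not pass in the same fit. It was at 218, 216 and 225 CPM in si-SNHG17 and 181, 197 and 199.7 CPM in si-NC (log2 fold change 0.19, adjusted p = 0.0598 by edgeR). It passed without si-NC replicate 3 (0.0195), with library totals alone (0.0248) and with the GC and length offset (0.00157). PSMD11, a lid subunit, had -0.16 (adjusted p = 0.105 by edgeR) and passed without si-NC replicate 3 (0.0157) and with that offset (0.0152). The remaining cap members, PSMD3, PSMD6, PSMD7, PSMD8, PSMD12 and PSMD13, ran from -0.12 to 0.07 and did not pass. PSMD8 was the most counted subunit, with 415 ± 28 CPM in si-SNHG17 and 431 ± 35.4 CPM in si-NC (n = 3 each, SD). The median of the 12 cap members was -0.08.

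Summed over their members, the ATPase and beta rings stood at 86.9% and 87.2% of the control level, the non-ATPase cap at 94.5% and the alpha ring at 98.2%. Such sums weigh abundant rows most. In si-SNHG17, PSMC4 and PSMC3 averaged 278 and 142 CPM of an ATPase sum of 497 CPM. PSMC3 did not pass, and the PSMC4 call depended on the processing. In the alpha ring 5 of 7 log2 fold changes were negative, while PSMA6 averaged 218 CPM in si-SNHG17 and 157 CPM in si-NC. The ATPase ring held 494, 504 and 494 CPM in si-SNHG17 libraries, against 550.0, 567 and 599 CPM in si-NC libraries, and did not overlap. The beta ring held 1225, 1309 and 1248 CPM in si-SNHG17 and 1414, 1381 and 1541 CPM in si-NC, and did not overlap either. The summed alpha ring was 1010 ± 63.1 CPM in si-SNHG17 and 1029 ± 59.6 CPM in si-NC. The summed non-ATPase cap was 1795 ± 40.4 CPM in si-SNHG17 and 1899 ± 56.8 CPM in si-NC (n = 3 each, SD). Groups overlapped in each of these. All 32 together held 4563 ± 145 CPM in si-SNHG17 and 4945 ± 213 CPM in si-NC, or 92.3% of the control level. The 18 cap subunits, ATPase ring included, held 2292 ± 46.3 CPM in si-SNHG17 and 2471 ± 81.1 CPM in si-NC. Neither sum overlapped between groups. The 14 core subunits held 2166, 2374 and 2274 CPM in si-SNHG17 and 2405, 2378 and 2638 CPM in si-NC. These did not overlap, but the nearest libraries, replicate 2 of each group, almost touched. Counts of the 14 core subunits over those of the 18 cap subunits gave 95.6%, 101% and 100.4% in si-SNHG17 and 100.7%, 96.1% and 103% in si-NC, which overlapped.

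**Figure D3:**
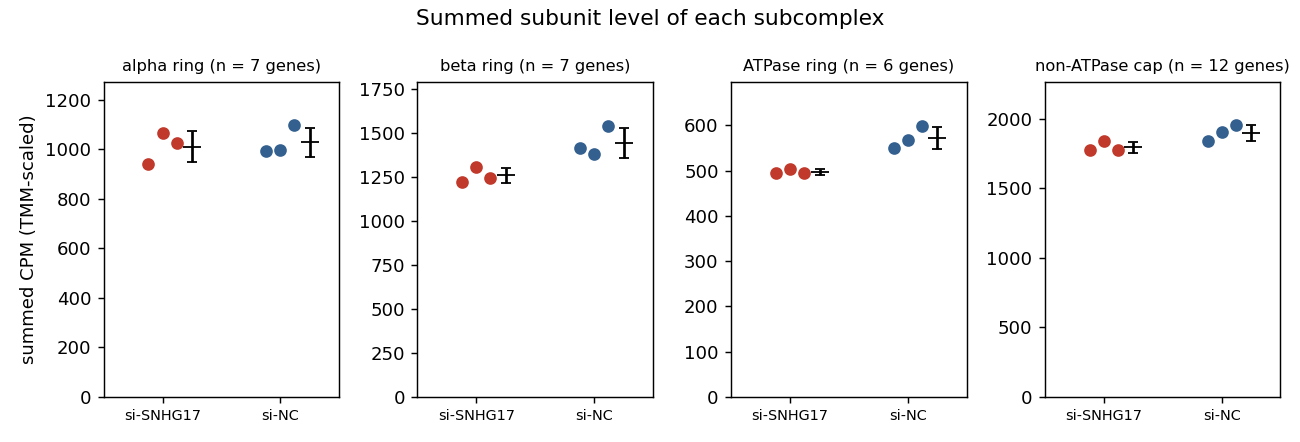
Summed TMM-scaled CPM (vertical axes, from 0) of the alpha ring, beta ring, ATPase ring and non-ATPase cap in 3 si-SNHG17 libraries (red) and 3 si-NC libraries (blue), with mean and SD in black. The beta and ATPase sums are lower in every si-SNHG17 library than in any si-NC library, and the other 2 sums overlap.

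The subunits of a proteasome are assembled in fixed numbers, but their mRNA rows were not level. Per kilobase of the longest GENCODE 29 principal transcript, means ran from 3.31 (PSMC2) to 318 (PSMB4) CPM per kilobase in si-SNHG17 and from 4.03 (PSMC2) to 346 (PSMB6) in si-NC, ranges of 96.0-fold and 85.9-fold. The order in si-NC began with PSMB6, PSMB4, PSMD8 and PSMA7. PSMB6 and PSMB4 did not differ beyond their spread (346 ± 49.4 and 318 ± 18.8 CPM per kilobase in si-NC, n = 3, SD). Median levels in CPM per kilobase were 158 in si-SNHG17 and 199 in si-NC for the beta ring, and 91.3 in si-SNHG17 and 101 in si-NC for the alpha ring. They were 51.5 in si-SNHG17 and 67.4 in si-NC for the non-ATPase cap, and 12.6 in si-SNHG17 and 14.03 in si-NC for the ATPase ring.

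Low rows were PSMC1, PSMC2, PSMC5, PSMC6, PSMD12, PSMD13 and PSMD14, all under 20 CPM per kilobase in each group, with PSMD1 just under it in si-SNHG17 (19.9). For PSMC1 and PSMC6, pseudogene rows held 87.3% and 46.4% of the counts of gene and copies together. For PSMC2 no such row was in the table. The order also depends on the transcript taken: PSMA4 stood at 44.5 CPM per kilobase in si-NC with its longest principal transcript and at 179 with its shortest. PSMC6 was above 20 with its shortest, at 22.3 CPM per kilobase in si-SNHG17 and 23.8 in si-NC. With the shortest principal transcripts the range in si-NC was 74.2-fold.

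**Figure D4:**
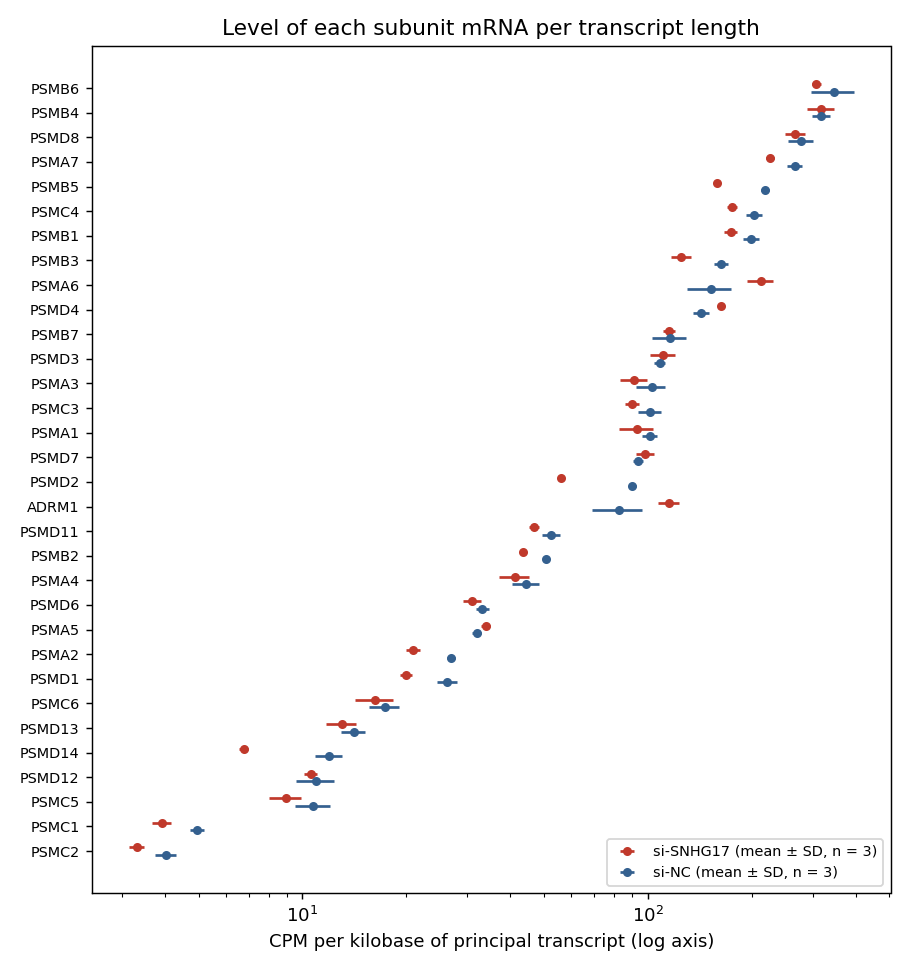
Mean level of each subunit mRNA in CPM per kilobase of principal transcript (horizontal log axis), with SD over 3 libraries, in si-SNHG17 (red) and si-NC (blue), ordered by the si-NC mean. Levels fall from 346 CPM per kilobase for PSMB6 to 4.03 for PSMC2 in si-NC.

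Pseudogene rows were found for 14 of the 32 subunits and held over 10% of the joint counts for PSMA2 (17.0%), PSMA6 (16.7%), PSMC1 and PSMC6. With the copies added, PSMA6 was still higher (0.46, adjusted p = 0.00236) and PSMA2 still lower (-0.32, adjusted p = 0.0136) by edgeR. PSMA2 also shares 34.6% of its exonic bases with exons of other genes, MRPL32 on the opposite strand among them. PSMA6 shares 14.1% of its exonic bases with exons of another gene on the same strand.

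The immunoproteasome subunits, which replace the catalytic beta subunits in cells exposed to interferon, were higher. All 3 that were tested rose, where 19.6% of all genes tested were higher. PSMB8 was at 76.3, 95.4 and 79.5 CPM in si-SNHG17, against 54.4, 56.5 and 61.2 CPM in si-NC (log2 fold change 0.55, adjusted p = 0.00076 by edgeR). PSMB9 was at 67.7, 81.5 and 61.8 CPM in si-SNHG17 and 39.0, 41.9 and 56.9 CPM in si-NC (0.61, adjusted p = 0.00327, and 0.80 without si-NC replicate 3). Over the 17 alternatives, the PSMB9 log2 fold change ran from 0.49 to 0.80. PSMB10 was at 37.1, 47.5 and 40.5 CPM in si-SNHG17 and 19.6, 24.2 and 29.3 CPM in si-NC (0.77, adjusted p = 0.000707). None of the 3 overlapped between groups, where 25.1% of all genes tested were separated in this direction. Exons of PSMB8, PSMB9 and a noncoding RNA overlap, as do those of PSMB10 and another gene (34.8% of its exonic bases), and the split of their reads is uncertain.

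Each was also set against the constitutive subunit it replaces, in a ratio that needs no library scaling. PSMB8 counts were 37.3%, 47.6% and 38.1% of PSMB5 counts in si-SNHG17 libraries, against 19.3%, 20.5% and 21.1% in si-NC libraries. The ratio of PSMB9 to PSMB6 was 26.8% ± 3.11 in si-SNHG17 and 15.6% ± 2.20 in si-NC, and that of PSMB10 to PSMB7 was 36.9% ± 3.28 in si-SNHG17 and 21.3% ± 1.99 in si-NC (n = 3 each, SD). Groups did not overlap in any of the 3 ratios, and si-SNHG17 replicate 2 was the highest in each. Summed, PSMB8, PSMB9 and PSMB10 held 33.8% ± 3.79 of the counts of PSMB5, PSMB6 and PSMB7 in si-SNHG17 and 18.5% ± 1.68 in si-NC. The thymus subunit PSMB11 and the testis subunit PSMA8 had no count in any library.

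**Figure D5:**
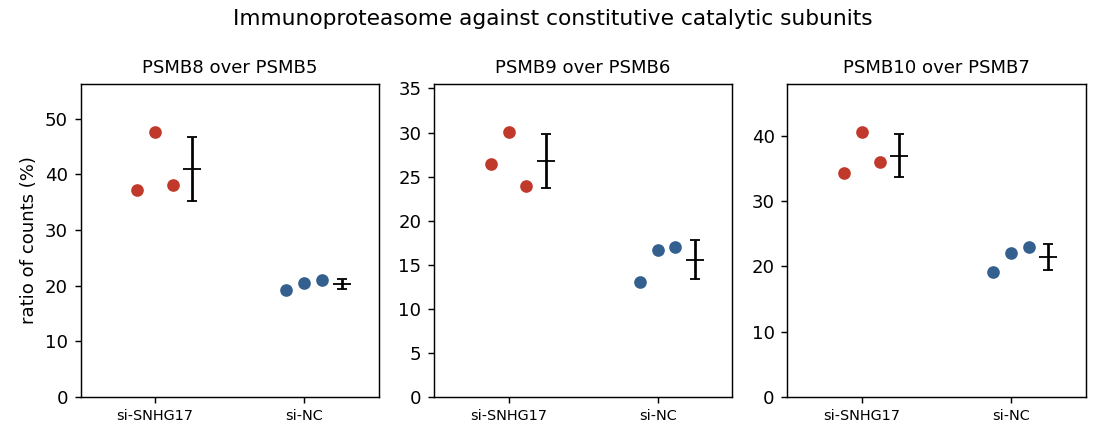
Counts of PSMB8, PSMB9 and PSMB10 as a percentage of the counts of PSMB5, PSMB6 and PSMB7 (vertical axes, from 0) in 3 si-SNHG17 libraries (red) and 3 si-NC libraries (blue), with mean and SD in black. In each pair every si-SNHG17 library lies above every si-NC library.

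Factors that build the particle were partly lower. Among chaperones of the core, PSMG1 and PSMG4 fell and none rose of 4 tested, where 19.6% of all genes tested were lower. PSMG1 was at 17.9, 20.5 and 22.3 CPM in si-SNHG17 and 23.7, 24.6 and 30.7 CPM in si-NC (-0.38, adjusted p = 0.0367 by edgeR). PSMG1 did not pass without si-SNHG17 replicate 1 or 2 or si-NC replicate 3 (adjusted p of 0.0756 to 0.149) and with library totals (0.0544). PSMG4 was at 6.57, 9.35 and 10.5 CPM in si-SNHG17 and 11.8, 11.5 and 13.3 CPM in si-NC (-0.48, adjusted p = 0.049 by edgeR). It did not pass without any 1 of the libraries other than si-SNHG17 replicate 3 (adjusted p of 0.0707 to 0.196), nor with library totals, DESeq2, the replicate block or the GC and length offset (0.0513 to 0.0811). POMP, which matures the core, had -0.09 and did not pass.

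Of the cap chaperones and SEM1, 3 of 5 fell and none rose, where 19.6% of all genes tested were lower. PSMD5 had 39.7, 39.4 and 41.8 CPM in si-SNHG17 and 56.7, 53.9 and 50.6 CPM in si-NC (-0.41, adjusted p = 0.00328 by edgeR). SEM1, the small lid subunit listed under its older symbol SHFM1, had 67.2, 71.1 and 70.8 CPM in si-SNHG17 and 81.5, 86.4 and 94.6 CPM in si-NC (-0.33, adjusted p = 0.00869 by edgeR). PSMD10, the chaperone also called gankyrin, had 58.1, 64.3 and 57.2 CPM in si-SNHG17 and 74.9, 71.5 and 75.0 CPM in si-NC (-0.30, adjusted p = 0.0149 by edgeR, but 0.0673 without si-SNHG17 replicate 1 and 0.0662 without replicate 3).

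Alternative caps and docking enzymes differed gene by gene. Of 4 activators tested, PSME3, the nuclear PA28-gamma activator, fell and PSME1, PSME2 and PSME4 did not pass. Over all genes tested, 39.1% passed and 19.6% were lower. PSME3 was at 93.3, 88.4 and 95.5 CPM in si-SNHG17, against 186, 194 and 150.5 CPM in si-NC (-0.93, standard error 0.0973, adjusted p = 5.2e-06 by edgeR), without overlap. PSME1 and PSME2, the PA28 genes induced with the immunoproteasome, had -0.03 and -0.15 and did not pass. ECPAS, a proteasome adaptor and scaffold listed under its older symbol KIAA0368, did not pass either (0.18, adjusted p = 0.174 by edgeR). The inhibitor PSMF1 was listed at 0 in every library, in a table whose counting rules are not given.

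Of 12 ubiquitin enzymes and shuttles of the proteasome, 3 fell and 1 rose, with a median of -0.09. The share that passed, 33.3%, was close to the 39.1% over all genes tested and is no result about this list. The shuttle UBQLN4 was at 59.4, 57.5 and 55.2 CPM in si-SNHG17 and 80.6, 74.7 and 73.1 CPM in si-NC (-0.41, adjusted p = 0.0021 by edgeR). UCHL5, the deubiquitinase that ADRM1 recruits, was at 21.9, 22.9 and 20.7 CPM in si-SNHG17 and at 29.6, 31.4 and 27.4 CPM in si-NC (-0.43, adjusted p = 0.00719 by edgeR). UCHL5 was thus lower where ADRM1 was higher. USP14, a further deubiquitinase of the cap beside UCHL5 and PSMD14, fell as well (-0.33, adjusted p = 0.01 by edgeR). TXNL1, a thioredoxin-like protein bound to the cap, was at 59.0, 71.8 and 68.3 CPM in si-SNHG17 and 42.5, 40.7 and 46.0 CPM in si-NC (0.62, adjusted p = 0.000267 by edgeR).

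NFE2L1 itself was slightly lower. It was at 373, 376 and 369.9 CPM in si-SNHG17 libraries, against 442, 455 and 435 CPM in si-NC libraries, without overlap (-0.25, adjusted p = 0.01 by edgeR). NFE2L1 protein is drawn out of the endoplasmic reticulum and trimmed before it acts, so its mRNA is only part of its control. Of 12 genes of this route, 4 fell and 1 rose, with a median of -0.06. The share that passed, 41.7%, was close to the 39.1% over all genes tested and is no result about the route. NGLY1, the glycanase that activates the protein, was at 37.9, 34.8 and 37.1 CPM in si-SNHG17 and 26.0, 22.9 and 23.1 CPM in si-NC (0.61, adjusted p = 0.000439 by edgeR). SEL1L, of the membrane complex that exports it, was at 81.4, 77.7 and 91.6 CPM in si-SNHG17 and 130.1, 131 and 92.5 CPM in si-NC (-0.50, adjusted p = 0.00549 by edgeR). In SEL1L, si-NC replicate 3 lay beside the si-SNHG17 libraries, and without it the log2 fold change was -0.65 (adjusted p = 3.24e-06). Over the 17 alternatives, the SEL1L log2 fold change ran from -0.65 to -0.42. UFD1, a cofactor of the extracting ATPase VCP, was at 34.0, 36.3 and 34.8 CPM in si-SNHG17 and 43.6, 49.4 and 47.0 CPM in si-NC (-0.41, adjusted p = 0.00401 by edgeR). VCP itself fell by 0.27 (adjusted p = 0.00888 by edgeR).

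Among genes that supply ubiquitin, UBB rose and RPS27A fell. UBB, which encodes a chain of ubiquitin units, was at 2640, 2699 and 2534 CPM in si-SNHG17 and 2097, 2056 and 2187 CPM in si-NC (0.31, adjusted p = 0.00265 by edgeR). RPS27A, which encodes ubiquitin fused to a ribosomal protein, was at 233, 205 and 245 CPM in si-SNHG17 and 306, 292 and 271 CPM in si-NC (-0.35, adjusted p = 0.00497 by edgeR). The groups did not overlap for either gene. Exons of a gene on the opposite strand cover 28.4% of the exonic bases of UBB, and use of strand in the counting is not given. The activating enzymes UBA1 and UBA6 had -0.10 and -0.05, and neither passed.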

How the data were processed

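Raw counts per gene (54261 rows, 6 libraries) were deposited by the authors. Per the labels' protocols, Trizol RNA went into Ion Total RNA-Seq libraries, sequenced single-end on a Proton instrument. GRCh38 is named in the submitters' processing notes; the aligner, counter, annotation and strand setting were not given in the sources used here. edgeR 4.0.16 (R 4.3.3) was run on the counts as deposited: filterByExpr, TMM, glmQLFit and glmQLFTest with group alone, Benjamini-Hochberg over 15614 genes, threshold 0.05. Fold changes put si-SNHG17 over si-NC, and CPM uses scaled library sizes. No libraries were identical (chi-square 2.38 to 9.83 per degree of freedom within groups, highest for si-NC replicate 3). The members and lists were chosen with earlier results of these data known. Library values are given for up to 4 subunits past the threshold per subcomplex and direction, and up to 3 genes of each other list, by smallest p; those of PSMD4 were added after its values were seen. A few genes on these lists are not reported here. Lengths are from GENCODE 29, promoters from RefSeq. Alternatives were other scalings and filters, DESeq2 1.42.0, limma-voom 3.58.1, a replicate block, a GC and length offset (mgcv 1.9.3), a stricter threshold and leaving out each library. A count of 0 allows up to 3 counts (0.240 to 0.342 CPM), counting error only.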

Additional observations from a re-analysis of the deposited data

How the results depend on the processing

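Of the 12 subunits past the threshold, 8 passed in all 17 alternatives (6 lower, 2 higher), and none of the 12 changed sign. PSMA7, PSMB2, PSMC1 and PSMC4 were each lost in some. The number lower was 6 at an adjusted p under 0.01, 6 with no low-count filter, and 6 to 11 when a library was left out (6 without si-SNHG17 replicate 1 or 3); 2 to 3 were then higher. The whole table gave 2064 genes higher and 2005 lower at 0.01, fewer by construction, and 2473 to 3335 higher and 2438 to 3266 lower when a library was left out. The beta ring median was -0.0686 with the GC and length offset; the cause was not tested. Subunits not called changed sign as follows. PSMB4 (0.00028) was -0.0017 with DESeq2 size factors, -0.0019 with upper-quartile scaling, -0.0040 without mitochondrial genes, -0.00075 with a mean CPM of at least 1, -0.0016 with DESeq2, -0.00077 with limma-voom and -0.0018 with the replicate block. PSMB7 (-0.01) was 0.0282 with library totals, 0.0012 with no filter and 0.113 under the GC and length offset, where PSMD3 was -0.0159. Leaving out each library gave -0.0717 to 0.0567 for PSMB4, -0.0793 to 0.0829 for PSMB7, -0.175 to 0.0129 for PSMC6, -0.0104 to 0.105 for PSMD3, -0.111 to 0.0080 for PSMD8 and -0.119 to 0.0518 for PSMD12. The replicate block gave 5579 genes in place of 6112 (5515 shared) and 9 subunits in place of 12. Deviations of like-numbered libraries correlated at 0.07, -0.13 and -0.11, so the numbers were not taken as pairs. Adding pseudogene rows was chosen after seeing the data. Depth limits the rarest subunits most: PSMC2 had 9.57 to 10.6 CPM in si-SNHG17 and 11.5 to 13.2 CPM in si-NC.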
